A study of Homo sapiens with 6 samples.

Results

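The 44 genes described here are the keratins and the genes of epithelial cell junctions that were picked by name from a count table of 27745 genes. They comprise 15 keratins, 9 tight junction genes, 4 adherens junction genes counting EPCAM, 10 genes of desmosomes and plakins, 4 genes of epithelial splicing and transcription, and the protease ST14 with its inhibitor SPINT1. All 44 were found in the table by their Ensembl identifiers. A gene was tested when it had 5 counts or more in at least 4 of the 6 samples, and 42 of the 44 passed. KRT13, with 0 to 6 counts, and OVOL1, with 0 to 5 counts, did not.

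The counts come from RNA-seq of MDA-MB-231, an established triple-negative breast cancer cell line, after lentiviral knockdown of MIR100HG, a long non-coding RNA that hosts microRNA genes. The study asked how MIR100HG affects the progression of this cancer. All cultures were infected with a lentivirus made in human embryonic kidney cells from the pLKO.1 vector and were collected 72 h after infection. The control group carried sh-TRC, and the knockdown groups carried sh-MIR100HG-1 or sh-MIR100HG-2, with 2 samples in each group. The controls were thus infected cells, and an uninfected culture was not analysed here. The study calls the knockdown replicates biological, but nothing in the labels ties a replicate to a separate culture, so p-values measure the spread between these samples.

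Keratins are the intermediate filament proteins of epithelia. A type I keratin pairs with a type II keratin, so that KRT18 partners KRT8 in simple epithelia and KRT14 partners KRT5 in the basal layer of stratified epithelia. Neighbouring epithelial cells are held together by tight junctions, which seal the space between cells through claudins and occludin, by adherens junctions, built on cadherins and catenins, and by desmosomes, which anchor keratin filaments through plakoglobin, plakophilins and desmoplakin. MDA-MB-231 is known as a mesenchymal-like line that has lost much of its E-cadherin while it still makes keratins.

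Total counts per sample ranged from 43804736 to 64588388. Levels are given as CPM, the counts scaled to library size, after TMM normalization, and levels of different genes are compared only as RPKM, the CPM divided by the kilobases of exon. MIR100HG stood at 41.8 and 58.5 CPM with sh-TRC, at 15.2 and 13.2 CPM with sh-MIR100HG-1 and at 16.6 and 10.4 CPM with sh-MIR100HG-2. All 4 knockdown samples were below both controls, with a log2 fold change (log2FC) of -1.86 ± 0.25 (SE). Its adjusted p was 0.381 in edgeR's quasi-likelihood test, so the target itself was not called at 0.05. Markers of mesenchymal-like cells were detected in all 6 samples, at unlike levels. VIM, which encodes vimentin, ranged from 1606 to 2094 CPM, MSN from 1186 to 1933 CPM and AXL from 999 to 1551 CPM. CD44 ranged from 538 to 957 CPM and CAV1 from 493.5 to 741.7 CPM. Lower were ZEB1 at 34.09 to 80.56 CPM, SNAI2 at 13.38 to 41.34 CPM and SPARC at 1.96 to 6.41 CPM. The 8 markers of that list summed to 5251 and 6033 CPM in the controls and to 5738 to 6707 CPM in the knockdown samples. The 7 hormone receptor and luminal markers summed to 161 to 264 CPM. ERBB2 ranged from 71.6 to 116 CPM, AGR2 from 46.1 to 111 CPM, TFF1 from 5.64 to 24.6 CPM and GATA3 from 9.9 to 13.0 CPM. PGR had 0 counts in 5 of the 6 samples. In sh-TRC replicate 2 and sh-MIR100HG-1 replicate 1, ESR1 was at 2.38 and 2.79 CPM and FOXA1 at 1.22 and 1.22 CPM. Elsewhere ESR1 was at 0.120 to 0.590 CPM and FOXA1 at 0.0236 to 0.160 CPM. The 6 immune markers summed to 168.5 to 258 CPM, almost all of it from CD68, the 3 endothelial markers found summed to 2.56 to 16.8 CPM, and the 4 markers of the embryonic kidney packaging line summed to at most 0.0944 CPM. In bulk RNA, fewer cells of a type and less RNA per cell cannot be told apart.

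A pair of libraries stood apart from the rest. In sh-TRC replicate 2 and sh-MIR100HG-1 replicate 1, 148 genes were over 0.1 CPM and more than 5 times above each of the other 4 libraries. For this rule CPM was scaled to the total counts only, without TMM. KIT, a receptor tyrosine kinase gene, had 422 and 494 counts in this pair and 0 in the other 4, and ALK had 733 and 939 counts against 15 to 63. These 148 genes took 0.0364% and 0.0381% of the counts of the pair, and 342 to 565 counts in each of the others. 0 of the 44 genes were among the 148. The rule that found the pair was chosen after the values were seen, its cause was not tested, and the knockdown differences of the keratin and junction genes that move with it are given with and without the pair.

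In the control samples, levels of the 44 genes spanned from 774 RPKM for KRT81 to 0.0137 RPKM for OVOL1. 4 genes were over 100 RPKM, 12 were from 10 to 100 RPKM, 13 were from 1 to 10 RPKM and 15 were under 1 RPKM. The highest was KRT81, a type II keratin known from the hair shaft, at 774 ± 314 RPKM (SD, n = 2), which ranked 25 among all genes of the table. It was followed by the simple epithelial keratins KRT19 at 186 ± 48.5 RPKM, KRT7 at 177 ± 28.2 RPKM, KRT8 at 126 ± 28.1 RPKM, KRT18 at 94.7 ± 19.4 RPKM and KRT80 at 74.1 ± 22.0 RPKM. CLDN4, a claudin of tight junctions, was the highest junction gene at 44.1 ± 9.15 RPKM, ahead of the catenin gene CTNND1 at 33.0 ± 0.982 RPKM and plakoglobin (JUP) at 24.3 ± 7.69 RPKM. E-cadherin (CDH1) was at 0.794 ± 0.492 RPKM, and the basal keratins KRT5 and KRT14 were at 0.216 ± 0.283 and 0.354 ± 0.227 RPKM. Of the 43 neighbouring pairs in this order, 36 had control values that overlapped. The 7 that did not were KRT81 over KRT19, KRT7 over KRT8, KRT80 over CLDN4, CLDN4 over CTNND1, CTNND1 over JUP, F11R over SPINT1 and GRHL2 over OVOL1. All 44 genes kept their rank when levels were given as TPM, which divides by length before scaling to the library. Within a library TPM differs from RPKM only by a constant factor, so the ranks could hardly change and this is no check of the order.

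**Figure D1:**
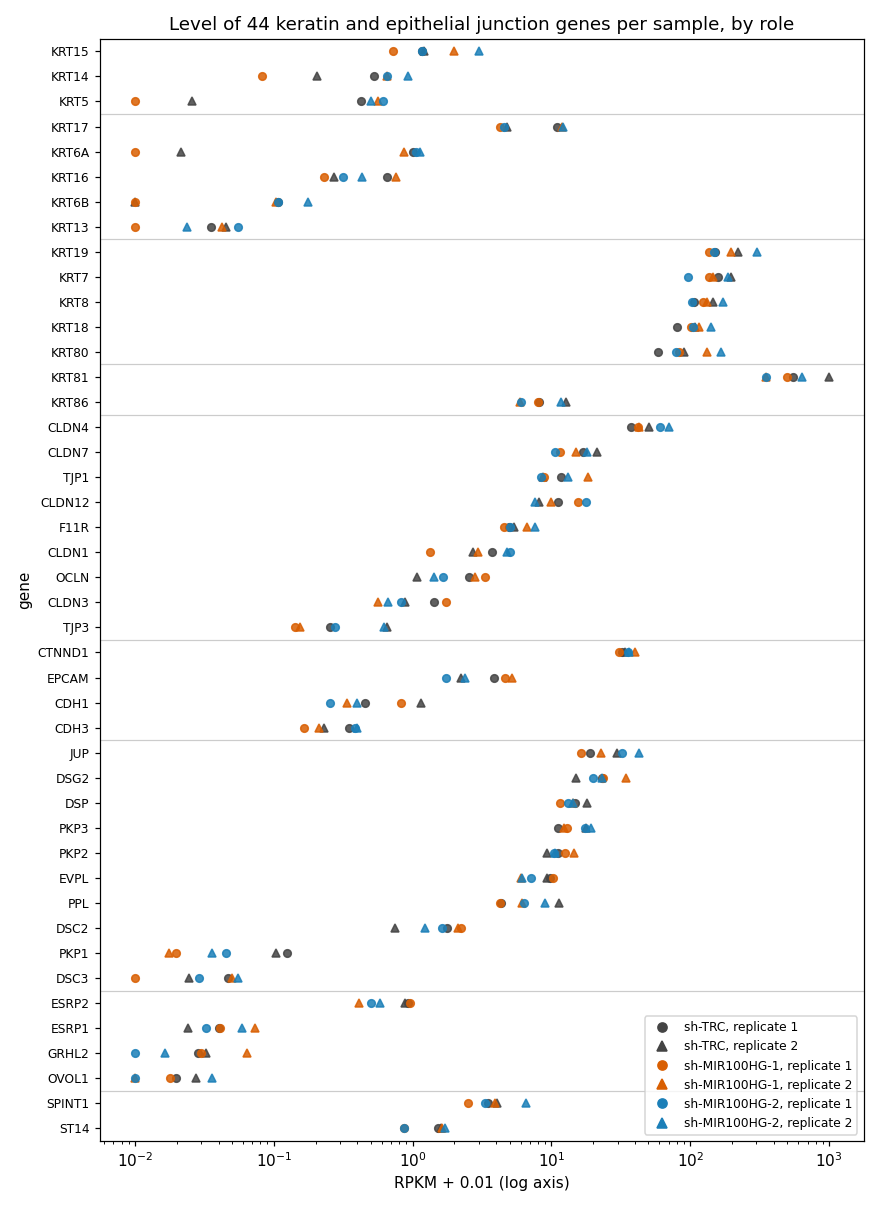
Level of each of the 44 genes in the 6 samples, as RPKM plus 0.01 on a log axis, with genes grouped by role (basal, stress, simple and hair keratins, tight junction, adherens junction with EPCAM, desmosome, splicing and transcription, matriptase and inhibitor) and ordered by the control mean. Colours mark the groups and shapes the replicates, and points at 0.01 are samples with 0 counts. KRT81 lies at the top of the range and the 3 basal keratins, CDH1 and PKP1 lie far below the simple epithelial keratins.

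Among the 15 keratins picked by name, a few held most of the RNA. The 15 keratins took 0.281% to 0.508% of all counts per sample, and the 6 highest made up 97.9% to 98.9% of their summed RPKM. The 39 other keratins in the table, of which 7 passed the count filter, are not in this sum. KRT81 alone made up 48.9% and 56.1% of it in the controls, 45.7% and 32.2% with sh-MIR100HG-1 and 39.0% and 39.1% with sh-MIR100HG-2. The partners KRT8 and KRT18 stayed close to each other, with a ratio of their RPKM from 0.983 to 1.35 over the 6 samples. KRT7 to KRT19 ranged from 0.610 to 1.04. By position, 9 of the 15 keratins lie on chromosome 12, which holds the type II cluster with KRT18 at its end, and 6 on chromosome 17, in the type I cluster.

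KRT81 (ENSG00000205426.10_1, chr12:52679697-52685318, minus strand, GRCh37) lies within the bounds of KRT86 (ENSG00000170442.11_2, chr12:52643084-52702947, plus strand), another hair keratin. Their transcripts are close copies, so counts of one can hold reads of the other, and how reads with several matches were counted is not given in the sources used here. Over 8 coding exons of equal length, 36 of 1279 bases differed between KRT81 and KRT86 (97.2% identity), and 2 of the exons were identical. Of the 50-base stretches in KRT81 transcripts, 44.6% also occur in other genes, 38.4% in KRT86. The stress keratins KRT6A and KRT6B were alike to the same degree, with 42 of 1692 coding bases differing over 9 exons (97.5% identity). Of the 50-base stretches of KRT6B, 46.6% also occur in other genes, 44.4% in the keratin gene KRT6C and 28.6% in KRT6A. For KRT6A it was 32.2%, with 29.2% in KRT6C and 21.7% in KRT6B. Coding exon 4, of 96 bases in each gene, is printed for both pairs to show how little separates them, in the strand of the transcript from 5′ to 3′ and with the bases that differ within a pair in capitals. It lies at chr12:52682145-52682240 (minus strand) in KRT81, chr12:52698716-52698811 (plus strand) in KRT86, chr12:52884642-52884737 (minus strand) in KRT6A and chr12:52843542-52843637 (minus strand) in KRT6B, all in GRCh37.
KRT81: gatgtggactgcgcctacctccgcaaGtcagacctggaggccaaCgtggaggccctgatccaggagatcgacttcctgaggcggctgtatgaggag
KRT86: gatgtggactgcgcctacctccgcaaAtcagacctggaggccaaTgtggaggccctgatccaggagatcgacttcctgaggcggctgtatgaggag
KRT6A: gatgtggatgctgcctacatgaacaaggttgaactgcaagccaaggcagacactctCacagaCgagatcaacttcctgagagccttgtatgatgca
KRT6B: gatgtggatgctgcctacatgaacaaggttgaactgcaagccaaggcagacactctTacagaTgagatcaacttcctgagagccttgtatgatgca
Only 2 bases differ within each pair. Shared stretches were fewer in KRT14 (17.0%), KRT16 (16.5%), KRT18 (16.2%), KRT8 (10.1%) and KRT17 (9.56%), mostly with pseudogenes or with each other, and KRT8 and KRT18 overlap by 525 exon bases on opposite strands. KRT7, KRT19 and KRT80 each shared under 1%, and CLDN1, TJP1, JUP, PKP1, PKP3, DSP, PPL, OVOL1, ST14 and SPINT1 shared none. F11R (35.9%) and CTNND1 (37.4%) shared sequence with annotated genes that overlap them.

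The first comparison asked how these genes differed between MIR100HG knockdown and control. With the mean of both shRNAs set against sh-TRC, the genes with the smallest p were PKP1, which encodes a plakophilin of desmosomes, and KRT81, both at lower levels, and no gene of the 42 passed at an adjusted p of 0.05. In edgeR's quasi-likelihood test 0 of the 15372 genes (0.00%) were called, and the smallest adjusted p of any gene was 0.381. PKP1 and MIR100HG were among the genes that shared this value. A gene that was not called is thus not shown to be unchanged. At an unadjusted p under 0.05, 2 of the 42 genes (4.76%) were lower and 0 were higher, against 7.68% of all genes, of which 4.44% were lower and 3.23% higher. The count of 2 was 8 without sh-TRC replicate 1, 1 without sh-TRC replicate 2, 5 without sh-MIR100HG-1 replicate 1 and 6 without sh-MIR100HG-2 replicate 2, and PKP1 was in it each time. DESeq2 called 129 genes and the likelihood ratio test of edgeR 109, of which 0 and 1 were among the 42, the 1 being PKP1, and limma-voom called 0. The log2FC of the 42 had a median of 0.06, with 24 positive and 18 negative, and that of all genes tested a median of -0.04. In 2 of the 42 (4.76%), DSP and PKP1, all 4 knockdown samples lay below both controls, against 9.07% of all genes, with 8.40% higher and 17.5% in either direction. Against the same controls, sh-MIR100HG-1 had 3 of 42 genes at an unadjusted p under 0.05 (KRT81, PKP1 and TJP3, all lower, 7.14% against 6.87% of all genes, 3.10% higher and 3.77% lower) and sh-MIR100HG-2 had 2 (CLDN4 higher and PKP1 lower, 4.76% against 8.86%, 3.71% higher and 5.15% lower), and 0 genes (0.00%) were called at an adjusted p of 0.05 in either. DESeq2 called 65 and 165 genes in these comparisons and the likelihood ratio test 34 and 121, of which 1 was among the 42, PKP1 in the likelihood ratio test of sh-MIR100HG-1.

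**Figure D2:**
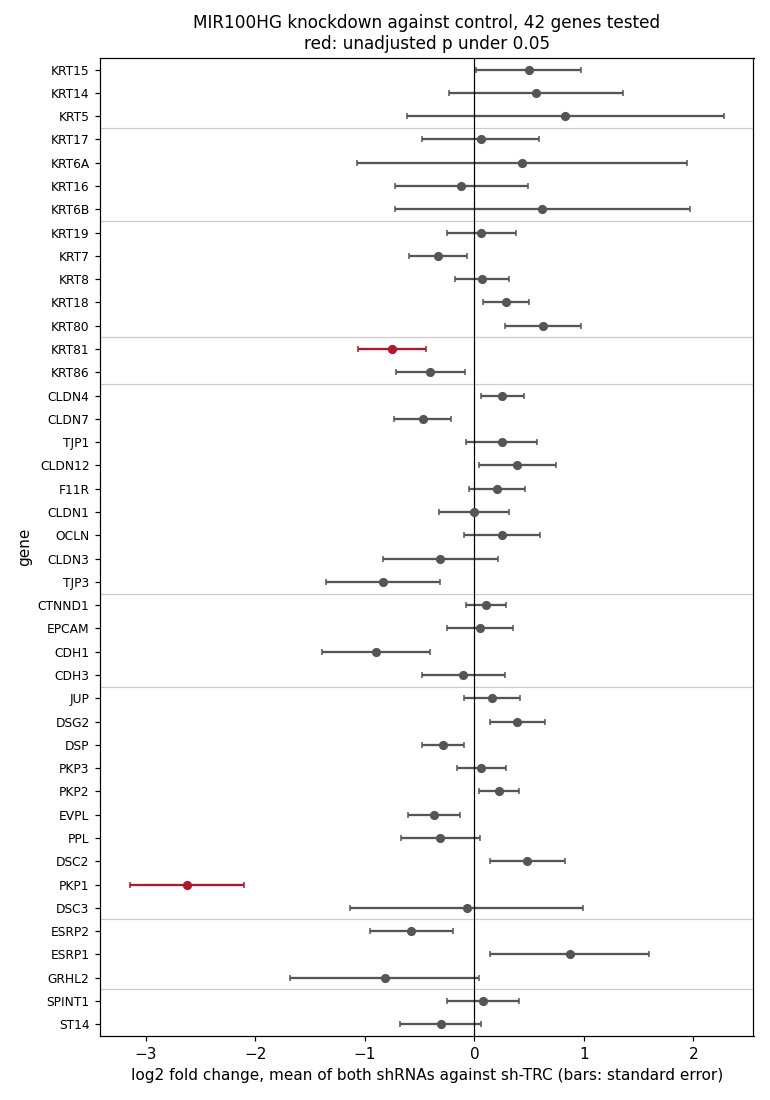
log2FC of the 42 genes tested, the mean of both shRNAs against sh-TRC, with points for the estimate of edgeR's quasi-likelihood fit and bars for its standard error, and genes grouped by role. PKP1 at -2.62 and KRT81 at -0.75, in red, had an unadjusted p under 0.05, and the bars of KRT5, KRT6A and KRT6B are the widest.

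The hair keratins KRT81 and KRT86 were lower on average with knockdown, but their groups overlapped. KRT81 stood at 1065 and 1922 CPM in the sh-TRC samples, at 964 and 681 CPM with sh-MIR100HG-1 and at 674 and 1236 CPM with sh-MIR100HG-2. Only sh-TRC replicate 2 lay above all knockdown samples, and sh-MIR100HG-2 replicate 2 lay above the other control. The log2FC was -0.75 ± 0.31 (SE, adjusted p = 0.642 in edgeR's quasi-likelihood test), and it was -0.27 without sh-TRC replicate 2 and -0.40 without the pair of libraries. KRT86 followed nearly the same order of samples at a far lower level, with 19.4 and 30.3 CPM in the controls, 19.2 and 14.2 CPM with sh-MIR100HG-1 and 14.5 and 27.9 CPM with sh-MIR100HG-2. Its log2FC was -0.40 ± 0.32 (adjusted p = 0.806) and -0.05 without sh-TRC replicate 2. The RPKM of KRT81 was 55.0 to 78.7 times that of KRT86 over the 6 samples, and the share of KRT86 counts that are reads of KRT81 was not tested.

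The simple epithelial keratins, the filament proteins of single-layered epithelia such as the luminal breast, showed no gene at an unadjusted p under 0.05 in any of the 4 comparisons. KRT8 was at 731 and 1005 CPM in the controls, 849 and 909 CPM with sh-MIR100HG-1 and 709.7 and 1177 CPM with sh-MIR100HG-2. Its partner KRT18 was at 261 and 349 CPM, then 328 and 373 CPM, then 338 and 451 CPM in the same order. KRT19, a type I keratin without a tail domain, was at 354 and 514 CPM, then 319.6 and 458 CPM, then 346 and 713 CPM. In each of these 3 genes the values of the 3 groups overlapped. KRT7 was at 644 and 808 CPM in the controls, 557 and 593 CPM with sh-MIR100HG-1 and 394 and 761 CPM with sh-MIR100HG-2, so that 3 of the 4 knockdown samples lay below both controls. KRT80, a type II keratin of many epithelia, was at 255 and 389.9 CPM, then 359 and 573 CPM, then 345 and 719 CPM, with the highest value in sh-MIR100HG-2 replicate 2 for all of these genes but KRT7. The log2FC of knockdown was 0.07 ± 0.24 for KRT8, 0.29 ± 0.21 for KRT18, 0.06 ± 0.32 for KRT19, -0.33 ± 0.26 for KRT7 and 0.63 ± 0.34 for KRT80, with adjusted p from 0.704 to 0.979.

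The basal keratins KRT5, KRT14 and KRT15 and the stress keratins KRT6A, KRT6B, KRT16 and KRT17, which stratified epithelia make on injury, were low in these cells, and their values split by library rather than by shRNA. KRT5 was at 1.79 CPM in sh-TRC replicate 1 and 0.0679 CPM in sh-TRC replicate 2, at 0 and 2.36 CPM with sh-MIR100HG-1 and at 2.58 and 2.10 CPM with sh-MIR100HG-2. KRT6A was at 2.90 and 0.0340 CPM in the controls, 0 and 2.53 CPM with sh-MIR100HG-1 and 3.09 and 3.26 CPM with sh-MIR100HG-2. The counts behind the low values were 4 and 0 for KRT5 and 2 and 0 for KRT6A, and 96 to 117 and 107 to 163 in the other 4 libraries. A count of 0 in sh-MIR100HG-1 replicate 1 allows 3 counts, or 0.0451 CPM, for counting error only and with counts taken as independent reads. KRT6B had 0 counts in both low libraries and 9 to 19 in the others. KRT14 was at 1.17 and 0.442 CPM in the controls, 0.166 and 1.46 CPM with sh-MIR100HG-1 and 1.48 and 2.08 CPM with sh-MIR100HG-2. All of these were lowest in sh-TRC replicate 2 and sh-MIR100HG-1 replicate 1, the pair that carried the 148 genes absent or low elsewhere.

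**Figure D3:**
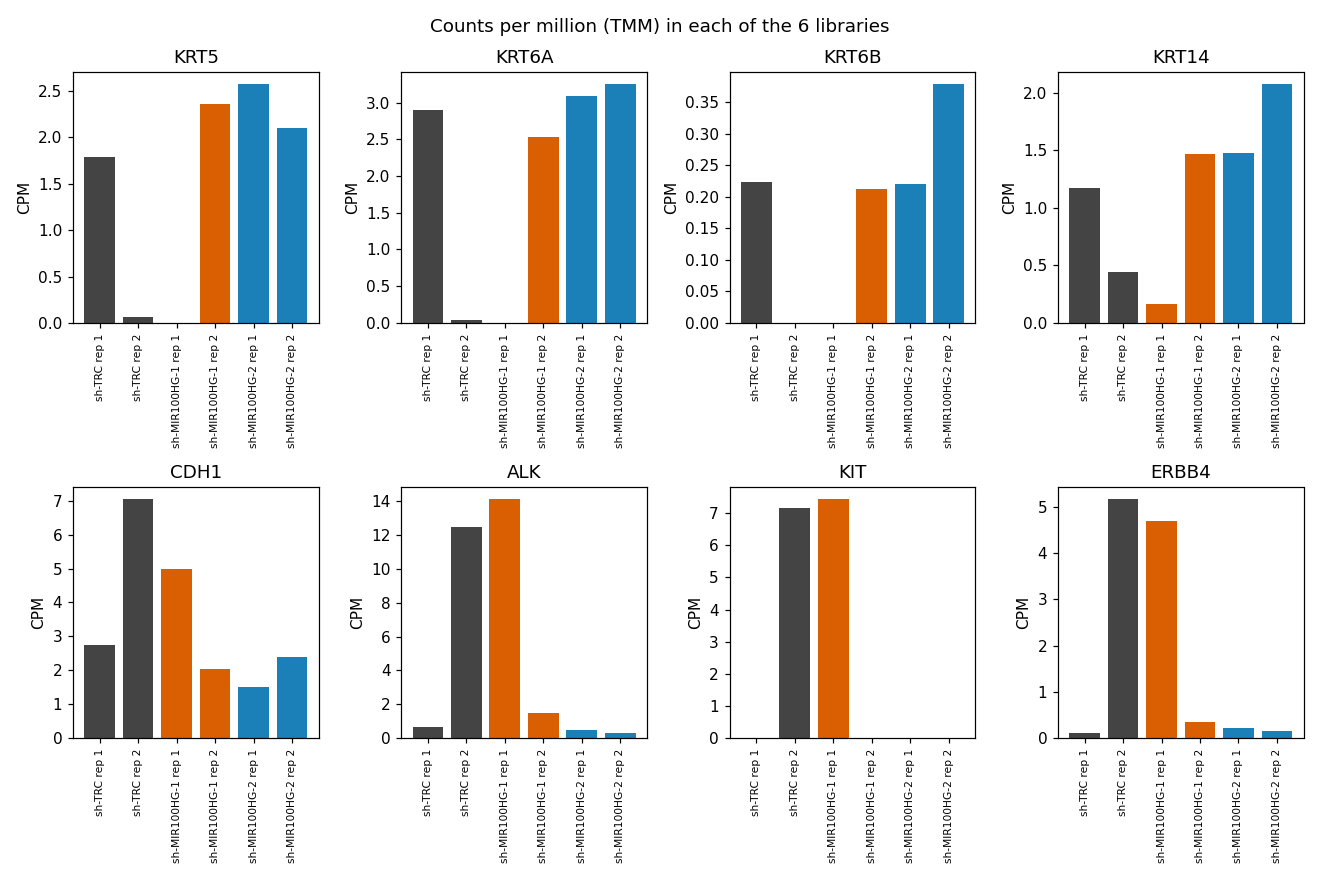
CPM in each library for 4 keratins that were low in sh-TRC replicate 2 and sh-MIR100HG-1 replicate 1, for CDH1, which was highest in this pair, and for ALK, KIT and ERBB4, 3 of the 148 genes that set the pair apart. Each bar is 1 library, coloured by group, and each panel has its own CPM axis from 0.

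Over the 42 genes, 8 (19.0%) had both libraries of the pair beyond the other 4, against 6.52% of all genes tested. CDH1 was higher in the pair (3.81% of all genes were), and CLDN1, DSC3, KRT5, KRT6A, KRT6B, KRT14 and KRT16 were lower (16.7%, against 2.71% of all genes lower in the pair). A mirror of the rule for the 148 genes, with a looser cut at more than 3 times below each of the other 4, found 5 genes in the whole table. KRT5, KRT6A and KRT6B were 3 of them beside ANPEP and DSG3, a desmosomal cadherin of stratified epithelia with 0 counts in the pair and 16 to 22 elsewhere. Since each library of the pair sits in another group, the log2FC of knockdown rested on which library was in the fit. It was 0.83 ± 1.45 for KRT5, and -0.12 with the pair as a covariate, 0.39 without the pair and -3.65 without sh-MIR100HG-1 replicate 2. For KRT6A it was 0.44 ± 1.51, and -0.26, -0.04 and -4.10 in the same settings. KRT14 had 0.56 ± 0.79, and -0.13 with the pair as a covariate, 0.46 without the pair and -0.56 without sh-MIR100HG-1 replicate 2. Without the pair KRT6B was at 0.18 in place of 0.62 ± 1.35, KRT16 at -0.31 in place of -0.12 ± 0.61 and DSC3 at -0.04 in place of -0.07 ± 1.07. Adjusted p for KRT5, KRT6A and KRT14 was 0.902 to 0.967 in edgeR's quasi-likelihood test.

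KRT15 and KRT17 varied by library in another way. KRT15, a basal keratin, was at 8.30 and 8.56 CPM in the controls, 5.09 and 14.02 CPM with sh-MIR100HG-1 and 8.24 and 21.5 CPM with sh-MIR100HG-2. KRT17, a stress keratin and the highest of its group, was at 28.0 and 12.1 CPM, then 10.9 and 30.4 CPM, then 11.6 and 30.7 CPM. Each knockdown group thus held a low and a high library, with replicate 2 the high one in both. The log2FC was 0.50 ± 0.48 for KRT15 and 0.06 ± 0.53 for KRT17. KRT16, the partner of the KRT6 keratins, ranged from 0.542 to 1.87 CPM over the 6 samples.

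Replicates of a group differed by over 1.5-fold in a larger share of these genes than of all genes. Between the replicates, 20 of 42 genes (47.6%) differed by over 1.5-fold in sh-TRC, 20 (47.6%) in sh-MIR100HG-1 and 18 (42.9%) in sh-MIR100HG-2, against 23.1%, 23.3% and 29.6% of all genes tested (0.125 CPM added to each value). Among the 26 genes with a mean over 10 CPM it was 10 (38.5%), 8 (30.8%) and 13 (50%), against 14.1%, 14.8% and 22.0% of 9508 genes. In sh-MIR100HG-2, 34 of 42 genes and 13 of 14 keratins were higher in replicate 2, and in sh-MIR100HG-1 31 of 42 and 12 of 14 were. The median log2 ratio of replicate 2 to replicate 1 over the 14 keratins was 0.80 in sh-MIR100HG-2, 1.05 in sh-MIR100HG-1 and 0.18 in sh-TRC, where 8 of 14 were higher. The median over all genes lay between -0.03 and -0.01, so in each group under 50% of all genes were higher in replicate 2. The keratins are not independent of each other, and these ratios compare libraries and not conditions. What set the libraries of a group apart was not tested.

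Of the tight junction genes, the claudins carried most of the counts and none of the 9 had an unadjusted p under 0.05 for the mean of both shRNAs. CLDN4 was at 177 and 238 CPM in the controls, 197 and 202 CPM with sh-MIR100HG-1 and 283 and 331 CPM with sh-MIR100HG-2. Both sh-MIR100HG-2 samples lay above the other 4, with a log2FC of 0.57 ± 0.22 against control (adjusted p = 0.545, edgeR's quasi-likelihood test) and of 0.25 ± 0.20 for both shRNAs together. CLDN7, also a sealing claudin, was at 42.1 and 52.8 CPM, then 28.5 and 37.4 CPM, then 26.3 and 44.6 CPM, and 3 of the 4 knockdown samples were below both controls (log2FC -0.47 ± 0.26, adjusted p = 0.703). CLDN1 was at 13.7 and 10 CPM, then 4.88 and 10.7 CPM, then 18.5 and 17.4 CPM, with both sh-MIR100HG-2 samples above the controls, 1 sh-MIR100HG-1 sample below them and a log2FC of knockdown near 0 (-0.00075 ± 0.32). OCLN, which encodes occludin, was at 17.3 and 7.18 CPM, then 22.5 and 18.8 CPM, then 11.1 and 9.55 CPM, and its controls spanned the sh-MIR100HG-2 values (log2FC of knockdown 0.25 ± 0.35). TJP3, a scaffold protein gene of the tight junction, was at 1.02 and 2.70 CPM, then 0.557 and 0.614 CPM, then 1.12 and 2.60 CPM. It was lower with sh-MIR100HG-1 (log2FC -1.67 ± 0.64, adjusted p = 0.714 in edgeR's quasi-likelihood test), and at -0.81 without sh-TRC replicate 2. For both shRNAs together it was at -0.84 ± 0.52, and at 0.06 without the pair of libraries. The scaffold gene TJP1, the adhesion gene F11R, CLDN12 and CLDN3 had log2FC of knockdown from -0.31 to 0.39, at adjusted p from 0.836 to 0.921.

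At the adherens junction, the catenin gene CTNND1, whose product p120 holds cadherins at the membrane, was high, and both cadherins were low. CTNND1 was at 284 and 296 CPM in the controls, 272 and 349.9 CPM with sh-MIR100HG-1 and 314 and 317 CPM with sh-MIR100HG-2 (log2FC 0.11 ± 0.18). CDH1 was at 2.75 and 7.05 CPM in the controls, 4.997 and 2.03 CPM with sh-MIR100HG-1 and 1.499 and 2.397 CPM with sh-MIR100HG-2. Its log2FC was -0.90 ± 0.49 (adjusted p = 0.704, edgeR's quasi-likelihood test). The highest values were again those of the pair of libraries, here as higher and not lower ones, and the log2FC was -0.07 without sh-TRC replicate 2 and -0.47 without the pair. CDH3, which encodes P-cadherin of basal cells, was at 2.10 and 1.38 CPM, then 0.963 and 1.25 CPM, then 2.34 and 2.42 CPM. EPCAM, an adhesion molecule of simple epithelia, was at 9.77 and 5.62 CPM, then 11.7 and 13.0 CPM, then 4.36 and 5.97 CPM. Both were ordered by shRNA and not by knockdown, with log2FC of knockdown at -0.10 ± 0.38 and 0.05 ± 0.30.

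The desmosome genes held the gene with the smallest p for knockdown among the 42, PKP1 (ENSG00000081277.12_2, chr1:201252580-201302121, plus strand, GRCh37). It was at 0.707 and 0.578 CPM in the controls, 0.0602 and 0.0472 CPM with sh-MIR100HG-1 and 0.220 and 0.160 CPM with sh-MIR100HG-2. Each of the 4 knockdown values was under both controls and the sh-MIR100HG-1 samples lay below those of sh-MIR100HG-2. These levels rest on few reads, with 38 and 34 counts in the controls, 4 and 2 in the sh-MIR100HG-1 samples and 10 and 8 in those of sh-MIR100HG-2. The log2FC was -2.62 ± 0.52 for both shRNAs together (adjusted p = 0.381, edgeR's quasi-likelihood test), -3.50 ± 0.70 where sh-MIR100HG-1 alone was compared and -1.75 ± 0.61 for the other shRNA. It stayed between -2.86 and -2.39 under every alternative tried, and its adjusted p ran from 0.00272 to 0.934. No 50-base stretch of PKP1 occurred in another gene.

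None of the other desmosome and plakin genes had an unadjusted p under 0.05 for the mean of both shRNAs, but that mean can hide differences between the shRNAs. JUP, which encodes plakoglobin and links desmosomal cadherins to desmoplakin, was at 93.1 and 147 CPM in the controls, 81.2 and 113 CPM with sh-MIR100HG-1 and 159 and 212 CPM with sh-MIR100HG-2. DSG2, a desmosomal cadherin, was at 142 and 93.6 CPM, then 146 and 214 CPM, then 123 and 144 CPM. Knockdown gave a log2FC of 0.16 ± 0.26 for JUP and 0.39 ± 0.25 for DSG2, with the control values inside or beside those of the knockdown samples. Against control, JUP was at -0.30 ± 0.30 with sh-MIR100HG-1 and at 0.63 ± 0.30 with sh-MIR100HG-2. DSG2 was at 0.61 ± 0.28 and 0.18 ± 0.28 in the same order. DSP, whose product desmoplakin ties the desmosome to keratins, was at 149 and 181 CPM in the controls and at 116 to 146 CPM in the 4 knockdown samples, which were all lower (log2FC -0.29 ± 0.19, adjusted p = 0.757). The plakophilins PKP2 and PKP3, the cadherins DSC2 and DSC3 and the plakins PPL and EVPL had log2FC from -0.36 to 0.48, with DSC3 at 0 to 16 counts. Over the 10 genes, PKP1 included, 5 were positive and 5 negative, with a median of -0.0040. Of these, DSC2 had 0.48 ± 0.34 and -0.02 without the pair of libraries. Against control it was at 0.79 ± 0.39 with sh-MIR100HG-1 and at 0.18 ± 0.39 with sh-MIR100HG-2.

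The regulators of the epithelial programme were low. ESRP2, a splicing factor of epithelial cells, was at 5.08 and 4.87 CPM in the controls, 5.27 and 2.22 CPM with sh-MIR100HG-1 and 2.73 and 3.18 CPM with sh-MIR100HG-2 (log2FC -0.58 ± 0.38, adjusted p = 0.757). Its paralog ESRP1 was at 0.149 and 0.0679 CPM, then 0.151 and 0.307 CPM, then 0.110 and 0.240 CPM (log2FC 0.87 ± 0.73). GRHL2, a transcription factor of epithelial genes, was at 0.112 and 0.136 CPM, then 0.120 and 0.331 CPM, then 0 and 0.0399 CPM (log2FC -0.82 ± 0.87). ESRP1 had 4 to 13 counts and GRHL2 0 to 14, so the log2FC of both rest on few reads. What size of difference could be detected in genes with counts this low was not tested. Against control, GRHL2 had a log2FC of 0.81 ± 0.89 with sh-MIR100HG-1 and of -2.45 ± 1.20 with sh-MIR100HG-2. The membrane protease matriptase (ST14) was at 6.61 and 6.93 CPM in the controls, 3.75 and 7.04 CPM with sh-MIR100HG-1 and 3.70 and 7.39 CPM with sh-MIR100HG-2. Its inhibitor SPINT1 was at 12.3 and 14.4 CPM, then 8.81 and 13.9 CPM, then 11.8 and 23.4 CPM. Both were lower in replicate 1 than in replicate 2 of each knockdown group, as KRT15 and KRT17 were, and knockdown gave a log2FC of -0.31 ± 0.37 for ST14 and 0.08 ± 0.33 for SPINT1.

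The second comparison set the shRNAs against each other, since both target MIR100HG and each can act on other transcripts. The 4 smallest p were those of EPCAM, plakoglobin (JUP), CLDN1 and the transcription factor GRHL2. At an unadjusted p under 0.05, 9 of the 42 genes (21.4%) differed between sh-MIR100HG-2 and sh-MIR100HG-1, against 9.45% of all genes tested. CLDN1, CLDN4, TJP3, CDH3, JUP and PKP1 were higher with sh-MIR100HG-2 (14.3%, against 3.34% of all genes), EPCAM, OCLN and GRHL2 were lower (7.14%, against 6.12%), and 0 of the 14 keratins were among the 9. None passed at an adjusted p of 0.05, at which 0 genes (0.00%) were called and the smallest adjusted p was 0.509, in edgeR's quasi-likelihood test, while DESeq2 called 103 genes and the likelihood ratio test 91, with 0 of the 42 in either. The count was 2, EPCAM and GRHL2, without sh-MIR100HG-1 replicate 1 and also without the pair of libraries, and 3 without sh-MIR100HG-2 replicate 2. In 17 of the 42 (40.5%) both sh-MIR100HG-2 samples lay beyond both sh-MIR100HG-1 samples, against 43.9% of all genes.

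EPCAM had the smallest p of the 42, with a log2FC of -1.25 ± 0.35 (adjusted p = 0.509, edgeR's quasi-likelihood test). Its sh-MIR100HG-1 values of 11.7 and 13.0 CPM lay above the sh-MIR100HG-2 values of 4.36 and 5.97 CPM, and the log2FC was -1.33 without the pair of libraries. CLDN1 had a log2FC of 1.21 ± 0.39, and 0.74 without the pair. JUP had 0.93 ± 0.30, CLDN4 0.62 ± 0.22, CDH3 1.10 ± 0.45 and OCLN -1.01 ± 0.40, and without the pair these were 0.71, 0.60, 0.92 and -0.87. TJP3 had 1.67 ± 0.64 and PKP1 1.75 ± 0.73, both low in count, with 1.60 and 1.95 without the pair. TJP3 was at 0.94 without sh-MIR100HG-2 replicate 2, and CLDN1 at 1.90 without sh-MIR100HG-1 replicate 2. For GRHL2 the 2 libraries of sh-MIR100HG-2 held 2 counts and those of sh-MIR100HG-1 22, a ratio of 0.104. Its exact 95% interval, for counting error only, was 0.0118 to 0.422 with each count taken as an independent read. All GRHL2 counts were even, as were 65.1% to 68.9% of counts from 1 to 30 per sample. If both reads of a fragment were counted, which was not tested, the interval is too narrow. All 4 of these comparisons share samples, so the values of sh-MIR100HG-1 enter both this one and its comparison with control.

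**Figure D4:**
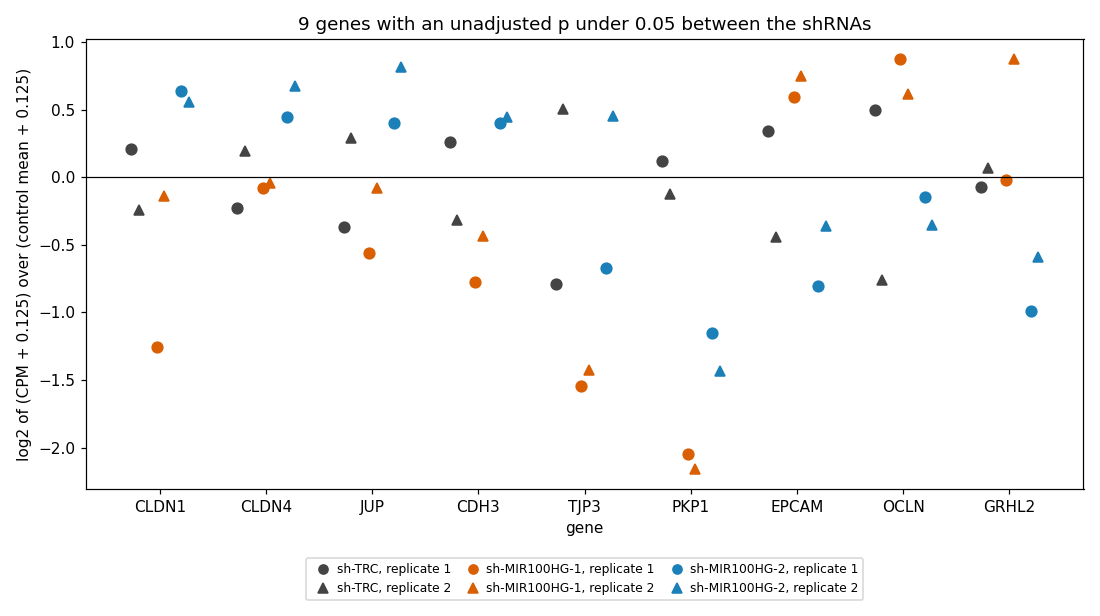
The 9 genes with an unadjusted p under 0.05 between the shRNAs, each sample as the log2 ratio of its CPM to the control mean, with 0.125 added to both. For each gene both sh-MIR100HG-2 samples lie on one side of both sh-MIR100HG-1 samples, and for CLDN1, CLDN4, JUP, CDH3, EPCAM and OCLN the shRNAs lie on opposite sides of the control mean, which is the line at 0.

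Among the keratins, none of the differences between the shRNAs had an unadjusted p under 0.05. The difference as log2FC, with sh-MIR100HG-1 as the base, was positive in 13 of the 14 keratins tested, with a median of 0.28. It was positive in 29 of the 42 genes, with a median of 0.14, and in 7533 of all 15372 genes tested, with a median of -0.01. The keratins are not independent of each other, so these counts are not separate results. The values of KRT6A, KRT6B and KRT14 did not overlap between the shRNAs, with sh-MIR100HG-1 replicate 1 at or near 0. KRT7 had 0.01 ± 0.31 and KRT18 0.17 ± 0.24.

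Other genes of the same structures, listed by family, gave 0 to 3 genes a list at an unadjusted p under 0.05 for knockdown. The table held 39 other keratins, and among the 7 tested KRT79 was lower at an unadjusted p under 0.05 (log2FC -1.61 ± 0.66). Of 18 other claudins 9 were tested, and 0 had such a p. Of the 18 other tight junction genes found 16 were tested, and the polarity gene CRB3 was lower (-1.27 ± 0.54). Of the 15 other adherens junction genes found 14 were tested, with 0. Of 10 other desmosome and plakin genes 6 were tested, and PKP4, a plakophilin also found at adherens junctions, was higher (0.51 ± 0.20). Of the 21 other epithelial regulators and proteases found 16 were tested, and MUC1, a membrane mucin (-0.75 ± 0.28), RBM47, an RNA-binding protein (-0.50 ± 0.19), and SPINT2, an inhibitor of matriptase (-0.48 ± 0.20), were lower. Without sh-TRC replicate 2 MUC1 was at -0.21 and SPINT2 at -0.16, and without sh-TRC replicate 1 MUC1 was at -1.14, SPINT2 at -0.74 and RBM47 at -0.33. Of 8 filament partners and intermediate filaments of other cell types 7 were tested, and GFAP, the filament protein of astrocytes, was lower (-1.67 ± 0.50). Together these are read against the 7.68% of all genes at the same p, and their adjusted p was 0.521 to 0.645 in edgeR's quasi-likelihood test.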

How the data were processed

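RNA-seq of 6 samples of MDA-MB-231 cells was used, 2 in each of 3 groups. The authors deposited raw counts per gene: per their methods, reads were trimmed of barcodes, mapped to GRCh37 with STAR (version 2.5.2a in the submitters' processing notes) against GENCODE gene models carried over to it, and summed over exons with FeatureCounts. Strandedness and the treatment of reads with several matches are not given in the sources used here. Among counts from 1 to 30, 65.1% to 68.9% per sample were even. Whether both reads of a fragment were counted is also not given. If they were, the limits given here for counting error are too narrow. Genes with under 5 counts in at least 3 of 6 samples were removed (12373), which left 15372. One model over the 6 samples was fitted in edgeR 4.0.16 in R 4.3.3 (TMM, glmQLFit, glmQLFTest), with 3 residual and 5.37 prior degrees of freedom, and p-values were adjusted by Benjamini-Hochberg over all genes tested. The common biological coefficient of variation was 27.8%. A gene counted as called when its adjusted p was 0.05 or less. DESeq2 1.42.0, limma 3.58.1 (voom) and other settings were alternatives. RPKM used the exon lengths deposited with the counts, and exon sequences came from GRCh37 with a GENCODE annotation of that build. The edgeR fit was tested on simulated data.

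Genes given by value in every sample are those with an unadjusted p under 0.05 for knockdown or between the shRNAs, the 2 highest of each role list, and CDH1, EPCAM, KRT5, KRT14, KRT8 and KRT18; of other lists, at most the 3 genes with the smallest such p. KRT80, KRT6B, DSP and the genes of the pair of libraries were named after their values were seen. The genes and lists were chosen with earlier results of these data known. With counts taken as independent reads, counting error at these depths allows up to 3 counts where 0 were seen, or 0.0451 to 0.0708 CPM per sample.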

Additional observations from a re-analysis of the deposited data

Results flagged for a closer look

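In 7 of the 42 genes both sh-MIR100HG-1 samples lay on one side of the control mean and both sh-MIR100HG-2 samples on the other. This share is close to the 14.6% of all genes tested that did so, and is not particular to these genes. The direct comparison of the shRNAs, with sh-MIR100HG-1 as the base, uses the same values that picked the genes, so it is no separate support. Its log2FC was 1.21 for CLDN1, 0.62 for CLDN4, 1.10 for CDH3, 0.93 for JUP and 0.53 for PKP3, all higher with sh-MIR100HG-2. It was -1.01 for OCLN and -1.25 for EPCAM, lower with sh-MIR100HG-2. Adjusted p in edgeR's quasi-likelihood test was 0.509 for each of these but PKP3, at 0.553. CLDN1 and CLDN4 are claudins, JUP and PKP3 belong to desmosomes, CDH3 encodes P-cadherin, OCLN encodes occludin of tight junctions and EPCAM an adhesion molecule of simple epithelia.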

How the results depend on the processing

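The 59 single-gene results were recomputed under 18 settings, which gave 1060 values. Of these, 991 kept their direction and their side of the threshold, 13 passed a threshold that the reported value did not, and 56 changed sign. Alternatives that used the pair of libraries or crossed the control numbers were chosen after seeing the data. The filter of edgeR's filterByExpr removed some genes of very low count, which then had no value. With 2 samples a group, a lone sample left in a group is assumed to vary like the other groups. Genes of few counts, such as PKP1, GRHL2 and ESRP1, are limited by depth, and the cause of a change between settings was not tested.

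Numbers of genes called at an adjusted p of 0.05 are given in the order knockdown, sh-MIR100HG-1 and sh-MIR100HG-2 against control, and sh-MIR100HG-2 relative to sh-MIR100HG-1. All 4 were 0 as reported, and also with limma-voom, the robust fit, filterByExpr, DESeq2 size factors, the replicate block, the crossed block and the pair as a covariate. They were 392, 227, 517 and 679 without a filter on low counts, 109, 34, 121 and 91 with the likelihood ratio test and 129, 65, 165 and 103 with DESeq2. Without the pair of libraries they were 2, 0, 14 and 15, and with only the compared groups in the fit the last was 7. Leaving out 1 replicate gave ranges of 0 to 3 for sh-MIR100HG-1, 0 to 4 for sh-MIR100HG-2 and 0 to 7 between the shRNAs, and 0 throughout for knockdown. The 3 came without sh-TRC replicate 1, the 4 without sh-TRC replicate 2, and between the shRNAs 6 and 7 without the one and the other. Of the 42 genes, 2 (KRT81 and PKP1) were called for knockdown and 2 for sh-MIR100HG-1 without the filter, and 3 (CLDN1, EPCAM and JUP) between the shRNAs, while the likelihood ratio test called 1, PKP1, for knockdown and 1 for sh-MIR100HG-1.

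At an unadjusted p under 0.05, the reported counts among the 42 were 2, 3, 2 and 9 in the same order. The first 3 were 4, 8 and 8 without the filter. With the likelihood ratio test that of sh-MIR100HG-2 was 4, with the pair as a covariate that of knockdown was 1 and that of sh-MIR100HG-1 was 5, and without the pair that between the shRNAs was 2. Leaving out 1 replicate gave 1 to 8 for knockdown, 1 to 8 for sh-MIR100HG-1, 2 to 6 for sh-MIR100HG-2 and 2 to 10 between the shRNAs. For sh-MIR100HG-1 it was 8 and 1 without the sh-TRC replicates 1 and 2, and 5 and 6 without its own. For sh-MIR100HG-2 it was 4 and 6, then 5 and 5, in that order.

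The groups share replicate numbers 1 and 2, which the labels tie to no shared batch or day. Deviations from the group means of same-numbered samples correlated at 0.436 between the shRNAs, and at -0.205 and 0.00629 between control and sh-MIR100HG-1 or sh-MIR100HG-2, so that the numbers were not taken to pair the samples over all groups. With the replicate block the counts at an unadjusted p under 0.05 were 4 (CLDN7, KRT80, KRT81 and PKP1), 7 and 4 against control, and 0 genes were called in any comparison. With the control numbers crossed they were 1 for knockdown and 4 for sh-MIR100HG-1.

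The log2FC that changed sign were those of knockdown, and TJP3 and DSC2 were the ones whose reported value exceeded its SE. CLDN1 was at 0.02467 with DESeq2 size factors, 0.0006005 without the filter, 0.0008946 with filterByExpr, 0.02494 with DESeq2, 0.1221 with only the compared groups and 0.02295 without the pair, CDH3 was at 0.0006493 with only the compared groups, and DSC3 was at 0.003536 with DESeq2. With the pair as a covariate KRT5 was at -0.12, KRT6A at -0.26, KRT14 at -0.13, KRT17 at -0.25 and EPCAM at -0.01697. Without the pair KRT6A was at -0.03691, KRT17 at -0.15, DSC2 at -0.02241, TJP3 at 0.06324, EPCAM at -0.25 and OCLN at -0.31. KRT17 was at -0.009836 with limma-voom and -0.20 with the replicate block. With the crossed block KRT19 was at -0.01314 and SPINT1 at -0.003118. Leaving out 1 replicate, log2FC ranged from -3.65 to 4.55 for KRT5, -4.09 to 5.77 for KRT6A, -0.00906 to 1.24 for DSC2, -1.37 to 0.028 for TJP3, -0.29 to 0.51 for EPCAM, -0.34 to 0.24 for CLDN1, -0.25 to 1.02 for OCLN, -0.38 to 0.24 for CDH3, -0.13 to 0.53 for JUP, -0.56 to 1.43 for KRT14, -0.43 to 0.78 for KRT17, -0.25 to 0.36 for KRT19, -0.22 to 0.28 for SPINT1, -0.15 to 0.32 for KRT8, -2.08 to 6.17 for KRT6B, -0.68 to 0.68 for KRT16 and -2.99 to 0.73 for DSC3.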
